A study of Arabidopsis thaliana with 6 samples.

Results

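The 40S subunit is the smaller of the subunits of the cytosolic ribosome. It binds the messenger RNA, carries the decoding site where codons meet transfer RNAs, and joins the large 60S subunit when translation starts. It is built in the nucleolus and cytosol from ribosomal RNA and a set of small, mostly basic proteins. In Arabidopsis nearly every one of these proteins is encoded by several genes that yield almost the same protein, so a cell can draw the same position of the ribosome from different paralogues. Demand for new ribosomes is high in dividing root tip cells.

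The genes described here were the 69 nuclear loci whose deposited annotation contains the text 40S ribosomal protein, out of 22746 probe sets tested. They carry 30 protein names. Among these, 24 proteins had 2 or more genes and 6 had 1 gene. The genes lay on all chromosomes, with 6, 12, 20, 8 and 23 on chromosomes 1 to 5. Proteins S5 and S6 were not among them because their annotation is worded differently. The annotation calls 4 of the genes pseudogenes, RPS9A, RPS12B, RPS21A and RPS25C. Another 6 genes, RPS3B, RPS16C, RPS17B, RPS20C, RPS26A and RPS29A, were read by probe sets whose annotation also names a different locus, so the signal of each may come from more than 1 gene. RPS23A was likewise on a probe set of the kind that can match near-identical transcripts. No sequence of these genes was used here.

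All samples came from wild-type Arabidopsis thaliana seedlings, cultivar Col-0, harvested 8 days after the start of growth. The seedlings grew on solid medium in upright plates, under light without a dark period, and were fixed in RNAlater, a solution that stabilises RNA. The outermost 0.5 mm of each root, which holds the root cap and the dividing cells, formed zone I. A piece of 1.5 mm that holds the elongating cells and the root hairs formed zone II. There were 3 arrays per zone. Because the labels leave unsaid whether the 3 came from different plantings, the p-values may reflect technical spread alone.

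The markers of both tissue pieces lay where the labels place them. All 5 measured markers of dividing cells were called higher in zone I, as were 3 of 4 root cap markers, and all 5 markers of root hairs and maturing tissue were called higher in zone II. Of the 2 measured shoot markers, the probe set for RBCS1A, a subunit of Rubisco that may share signal with a related gene, was higher in zone II (2.65 ± 0.47, log2 difference ± SE, adjusted p = 0.00113, limma) and LHCA1 was not called (1.72 ± 0.78, adjusted p = 0.111). The deposited arrays share a single trimmed mean, so a signal is relative to the other transcripts on its array. In pieces of bulk tissue, fewer cells of a type and less RNA per cell cannot be told apart.

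Genes for 40S proteins gave far higher signals in the root tip than in the elongation and root hair zone. Of the 69 genes, 59 were higher in zone I, 0 were higher in zone II and 10 were not called at an adjusted p under 0.05 (limma, adjusted over all probe sets). At an unadjusted p under 0.05, 1 gene, RPS25A, was higher in zone II. For comparison, 19.8% of all probe sets were called higher in zone I. The median log2 difference, given throughout as zone II minus zone I, was -1.62 over the 69 genes and -0.04 over all probe sets. The 3 zone I arrays all lay above the 3 zone II arrays for 61 of the 69 genes, and the same held for 26.4% of all probe sets.

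Nearly all called genes were on bright probe sets, and the uncalled genes were on dim ones. All 58 genes whose mean signal exceeded the median probe set were called higher in zone I, with differences from -3.85 to -0.85 and quartiles of -1.92 and -1.43. Of the 11 genes below that median, 1 was called. The mean signal takes in the arrays of both zones, so this split is not independent of the zone difference and describes the calls only. Because 51 of the 69 genes were among the 2275 brightest probe sets, these are the closer background. Of those probe sets 910 were higher in zone I, and so were all 51 of the genes for 40S proteins among them.

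**Figure D1:**
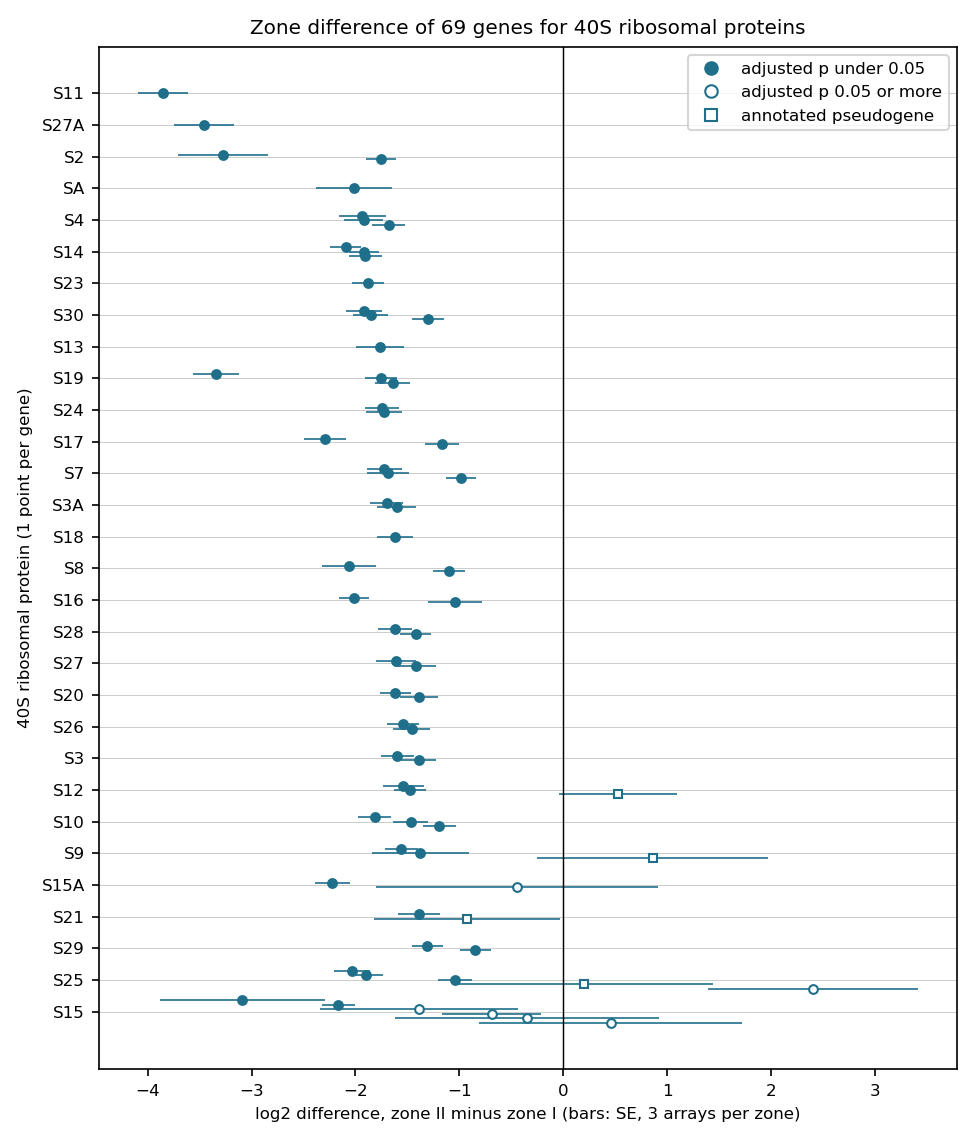
Log2 difference between zones (x axis, zone II minus zone I) for the 69 genes, grouped by protein (y axis) and ordered by the median of each protein. Points are genes, bars are standard errors over 3 arrays per zone, filled points had an adjusted p under 0.05 and squares are annotated pseudogenes. Filled points lie between -3.85 and -0.85, and every point right of 0 is open.

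The whole signal of the set moved with the zones on every array. The summed signal of the 69 genes was 699012, 787506 and 723036 on the zone I arrays and 232220, 269250 and 272887 on the zone II arrays. The lowest zone I sum was thus above the highest zone II sum. Within zone II, array 1 was the lowest, with a median over the genes of -0.27 on the log2 scale against the other arrays of that zone. On the same array the summed signal of the 5 dividing cell markers was 494.1, against 96.0 and 75.0 on the others. In zone I it was 2698, 4462 and 3440. The sum on zone II array 1 came mostly from KN (337.8) and CDKB2;2 (104.4). By contrast, PLT1 (2.27) and PLT2 (1.38) were lowest on that array within zone II, and CYCB1;1 (48.3) lay between the other zone II arrays. All zone II signals of PLT1, PLT2 and CYCB1;1 were below 64, where errors are large. They cannot show whether the markers moved together. The part of dividing cells in the 40S difference was not tested. Without zone II array 1, 59 genes were still called higher in zone I.

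Genes for the large subunit gave similar values. Of 99 genes annotated as 60S ribosomal proteins, 86 were called toward zone I and 1 toward zone II, with a median of -1.66. The difference between the sets was not tested. A further 14 genes for 40S proteins, whose annotation lacks the text used above, were looked up after values had been seen. All 14 were higher in zone I, between -2.18 and -1.15, with a median of -1.63. They include RPS5B (-1.15 ± 0.20) and both genes for S6, the substrate of S6 kinase, RPS6 at AT4G31700 (-1.18 ± 0.18) and RPS6B (-1.54 ± 0.16).

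**Figure D2:**
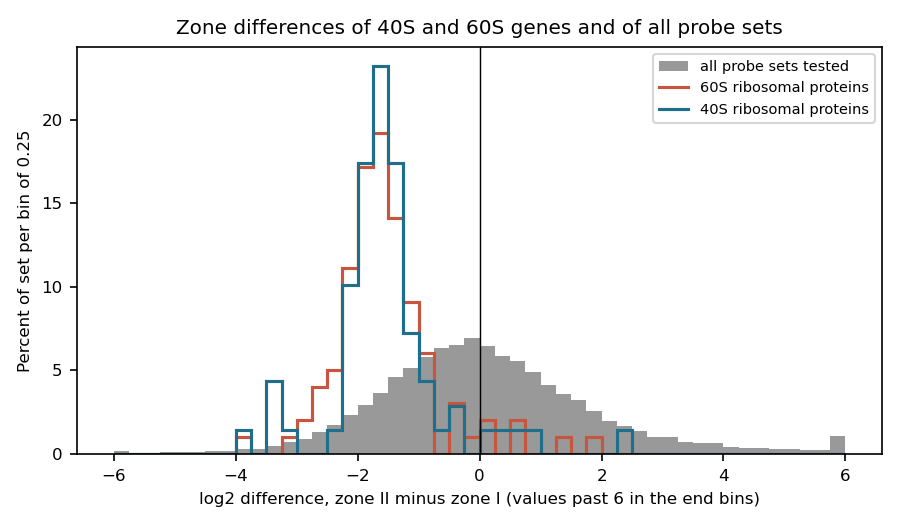
Distribution of log2 differences (x axis, zone II minus zone I, bins of 0.25) as a percent of each set (y axis) for all 22746 probe sets, the 99 genes for 60S proteins and the 69 genes for 40S proteins. Both ribosomal sets centre near their medians of -1.66 and -1.62, while all probe sets centre near 0.

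Sorted by place in the subunit, most genes of every region were higher in zone I. At the mRNA entry channel and decoding site, formed by S2, S3, S9, S23 and S30, 10 of 11 genes were higher in zone I, with a median of -1.60. In the body, 13 of 14 genes for S4, S7, S8, S11, S13, S15A and S24 were higher in zone I, with a median of -1.74. On the platform and mRNA exit side, 11 of 12 genes for S3A, S14, S21, S26, S27 and SA were, with a median of -1.61. In the head, which holds S10, S12, S15 to S20, S25, S27A, S28 and S29, 25 of 32 genes were, with a median of -1.47. The head also held 7 of the 10 uncalled genes, all of them below the median signal. Over all probe sets, 19.8% were called higher in zone I. Differences between the regions were not tested. Each of the 30 proteins had at least 1 gene higher in zone I. In 18 of the 24 proteins with several genes all of them were, and S9, S12, S15, S15A, S21 and S25 mixed called and uncalled genes.

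The largest difference belonged to RPS11B (AT4G30800), for a protein of the body. Its signal was 2767, 3926 and 3716 on the zone I arrays and 204, 317 and 209 on the zone II arrays. The zones were far apart, 14.4-fold between their geometric means (-3.85 ± 0.24, SE, adjusted p = 2.39e-06, limma). It was the 1 gene for S11 among the 69.

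RPS27aA (AT1G23410) followed, the gene for a fusion of ubiquitin with ribosomal protein S27A, which is cut apart after translation. Its signal was 2455, 2843 and 3454 in zone I and 166, 328 and 336 in zone II. The zones did not overlap, with a difference of -3.46 ± 0.29 (adjusted p = 8.11e-06). It was the 1 gene of its protein among the 69.

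Next came RPS19B (AT5G15520), for a protein of the head that in humans is mutated in Diamond-Blackfan anaemia. It gave 5562, 4351 and 4067 in zone I and 361, 586 and 442 in zone II, a 10.2-fold gap (-3.35 ± 0.22, adjusted p = 3.49e-06). Its paralogues changed less, RPS19A by -1.75 ± 0.15 and RPS19C by -1.64 ± 0.16.

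RPS2D (AT3G57490) encodes S2, which lines the mRNA entry channel. Its signal was 1385, 1518 and 1070 in zone I and 167, 61.9 and 239 in zone II. The zone II arrays spread widely but stayed below zone I (-3.28 ± 0.43, adjusted p = 0.000147). RPS2C, the other S2 gene, gave 11758, 11180 and 10762 against 3146, 3336 and 3505, with a difference of -1.76 ± 0.15.

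RPS15C (AT5G09500), for a head protein near the decoding site, was the 1 called gene below the median signal. Its signal was 210, 176 and 196 in zone I and 10.2, 14.3 and 80.4 in zone II. The zones did not overlap, but zone II array 3 was well above the other zone II arrays and all 3 were dim. The difference was -3.09 ± 0.79 (adjusted p = 0.00982) and -1.45 with 64 added to every signal. With array 1 of both zones left out together it was -2.45 with an adjusted p of 0.0744, the highest over the alternatives, whose lowest was 0.000921.

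At the other end stood some of the brightest genes. RPS29C (AT4G33865), for a small zinc-binding protein of the head, had the smallest called difference. It gave 26256, 30933 and 27498 in zone I and 14893, 16675 and 15486 in zone II, a 1.80-fold gap (-0.85 ± 0.15, adjusted p = 0.00115). The zones did not overlap. RPS7A followed with -0.98 ± 0.14, then RPS16B and RPS25E, each with -1.04.

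RPS8A (AT5G20290), for a protein of the body, was also among the 3 genes with the highest mean signal. Its arrays read 37095, 42123 and 37995 in zone I and 17163, 19263 and 18196 in zone II (-1.10 ± 0.15, adjusted p = 0.000188). RPS20C, for a head protein and the remaining gene of the 3, gave 33291, 38232 and 33170 against 11303, 11326 and 11456. Its difference of -1.62 ± 0.15 was close to the median of all 69 genes (adjusted p = 1.45e-05).

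Over the 58 genes above the median signal, brighter probe sets had smaller differences, with a Spearman rho of 0.65 between mean log2 signal and the signed difference. Over all 69 genes rho was 0.07. These points share their 6 arrays and the mean signal itself includes zone II, so the value is a description only. The part of signal level in the size of the differences was not tested.

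Every uncalled gene was below the median signal. The 4 annotated pseudogenes were all among them. RPS9A had a difference of 0.86 ± 1.11, RPS12B of 0.53 ± 0.57, RPS25C of 0.20 ± 1.24 and RPS21A of -0.93 ± 0.90. Of the rest, 4 belonged to S15: RPS15E (-0.69 ± 0.47), RPS15B (-0.35 ± 1.27), AT1G33850 (0.46 ± 1.26) and AT5G63070 (-1.39 ± 0.95). RPS15aC gave -0.45 ± 1.35. Their standard errors ran from 0.47 to 1.35, against at most 0.47 for the genes above the median signal.

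RPS25A (AT2G16360) had the highest value of the set. S25 is a head protein that contacts transfer RNAs and, in yeast and human cells, is needed by some viral internal ribosome entry sites. Its RPS25A signal was 5.58, 77.3 and 17.04 in zone I and 166, 147 and 44.7 in zone II. The zones overlapped through zone I array 2, and the difference of 2.40 ± 1.01 was not called (adjusted p = 0.086). Without that array it was 3.40 with an adjusted p of 0.0261, while the other alternatives ranged up to 0.457.

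Genes of the same protein were then compared with each other. Signals of different probe sets cannot be set against each other, so the log2 ratio of each pair was taken on every array and its change from zone I to zone II was tested. Probe sets naming a single locus formed 57 pairs in 18 proteins. The ratio changed in 18 pairs from 10 proteins, which is 31.6% of them, against 26.6% of 6044 pairs of same-named probe sets in the whole table. With both genes above the median signal, 11 of 29 pairs (37.9%) changed, against 38.3% of such pairs overall. The ratios of the zones did not overlap in 22 of the 57 pairs (38.6%), against 43.0% overall. The share of changed ratios among 40S paralogues was therefore near the background. The calls also leaned on the fit, since 5 of the 57 pairs were called without the intensity trend, 32 with 64 added to the signals, and 11 without zone I array 2.

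S19 gave the largest change between bright paralogues. The log2 ratio of RPS19B to RPS19C was -0.64, -1.19 and -1.28 on the zone I arrays and -2.87, -2.36 and -2.99 on the zone II arrays. The zones did not overlap, and the ratio changed by -1.70 ± 0.25 (95% interval -2.26 to -1.15, adjusted p = 0.000724). Against RPS19A, RPS19B changed by a similar amount (RPS19A to RPS19B 1.59 ± 0.26, adjusted p = 0.00118, and 0.0529 without the intensity trend), and RPS19A and RPS19C did not change against each other beyond their error (-0.11, interval -0.51 to 0.29).

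In S2, the ratio of RPS2C to RPS2D was 3.09, 2.88 and 3.33 in zone I and 4.23, 5.75 and 3.87 in zone II. It was higher on every zone II array (1.52 ± 0.42, interval 0.60 to 2.44, adjusted p = 0.0206). The ratio of 5.75 came from the array where RPS2D read 61.9. With 64 added to the signals the change was 1.00 (adjusted p = 0.0148). The call was lost under 4 of the alternatives, with adjusted p-values up to 0.128.

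In S25, RPS25E stood apart from RPS25B and AT4G34555. The ratio of AT4G34555 to RPS25E was -1.85, -1.70 and -1.69 in zone I and -2.76, -2.72 and -2.72 in zone II. The arrays of each zone lay close together and the zones did not overlap (-0.99 ± 0.15, interval -1.31 to -0.67, adjusted p = 0.000705). RPS25B changed against RPS25E by -0.86 ± 0.15 (adjusted p = 0.00164) and against AT4G34555 by 0.14 (interval -0.25 to 0.53, not called). Without the intensity trend both calls against RPS25E were lost (adjusted p = 0.103 and 0.143). The dim RPS25A was called higher relative to all 3 in zone II, but its zone I signals are too low to size the change: it was 3.45 to 4.44 as fitted and 1.95 to 2.91 with 64 added. Against RPS25E that call was also lost without the trend (adjusted p = 0.076) and when the first arrays were left out (0.0872).

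In S7, a body protein, RPS7A was the gene that differed. The ratio of RPS7A to RPS7B was 0.54, 0.09 and 0.48 in zone I and 1.15, 0.96 and 1.22 in zone II. All zone II ratios were higher (0.74 ± 0.17, interval 0.37 to 1.11, adjusted p = 0.00794). RPS7A changed against RPS7C by 0.70 ± 0.21 (adjusted p = 0.030), while RPS7B and RPS7C differed by -0.03 (interval -0.44 to 0.37, not called). The call of RPS7A against RPS7C was lost under 5 alternatives (adjusted p of 0.0536 to 0.277), and that against RPS7B without the intensity trend (0.216).

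In S8, the ratio of RPS8A to RPS8B was 4.22, 4.13 and 4.46 in zone I and 5.48, 5.55 and 4.67 in zone II. Zone II array 3 came close to zone I without overlapping it (0.96 ± 0.24, interval 0.43 to 1.49, adjusted p = 0.0128). The call was lost under 4 alternatives, with adjusted p-values of 0.0546 to 0.167. RPS8B itself gave 1985, 2400 and 1728 in zone I and 384, 412 and 715 in zone II.

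Smaller changes were called in S10 and S30. RPS10A changed against RPS10B by -0.62 ± 0.17 (adjusted p = 0.0219), in a protein near the mRNA entry side of the head. S30 lies at the entry channel, and there RPS30B changed against RPS30C by 0.55 ± 0.14 (adjusted p = 0.016) and RPS30A against RPS30B by -0.62 ± 0.18 (adjusted p = 0.0276). In all 3 of these pairs the arrays of the zones did not overlap. None of the 3 calls held throughout: 4 alternatives ended that of RPS10A and RPS10B (adjusted p up to 0.273), 4 that of RPS30B and RPS30C (up to 0.313) and 6 that of RPS30A and RPS30B (up to 0.291).

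The remaining 7 called pairs had a gene below the median signal: both S12 genes against the pseudogene RPS12B, the 3 pairs with RPS25A, RPS15D against RPS15E, and the pseudogene RPS9A against RPS9B. RPS12B gave 71.6, 57.2 and 47.3 in zone I and 99.1, 65.2 and 89.8 in zone II, so its zones overlapped while RPS12A and RPS12C were 2.79 and 2.91 times higher in zone I. The ratio of RPS12B to RPS12C changed by 2.07 ± 0.38 (adjusted p = 0.00255). RPS15D, whose neighbours in the TAIR10.1 gene order are RPS15C and then RPS15B, changed against RPS15E by -1.47 ± 0.39 (adjusted p = 0.0174), a call that 5 alternatives ended (adjusted p of 0.0552 to 0.0683). RPS9A against RPS9B was called at 2.42 ± 0.81 (adjusted p = 0.0475), although the ratios of the zones overlapped, and 9 alternatives ended that call.

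**Figure D3:**
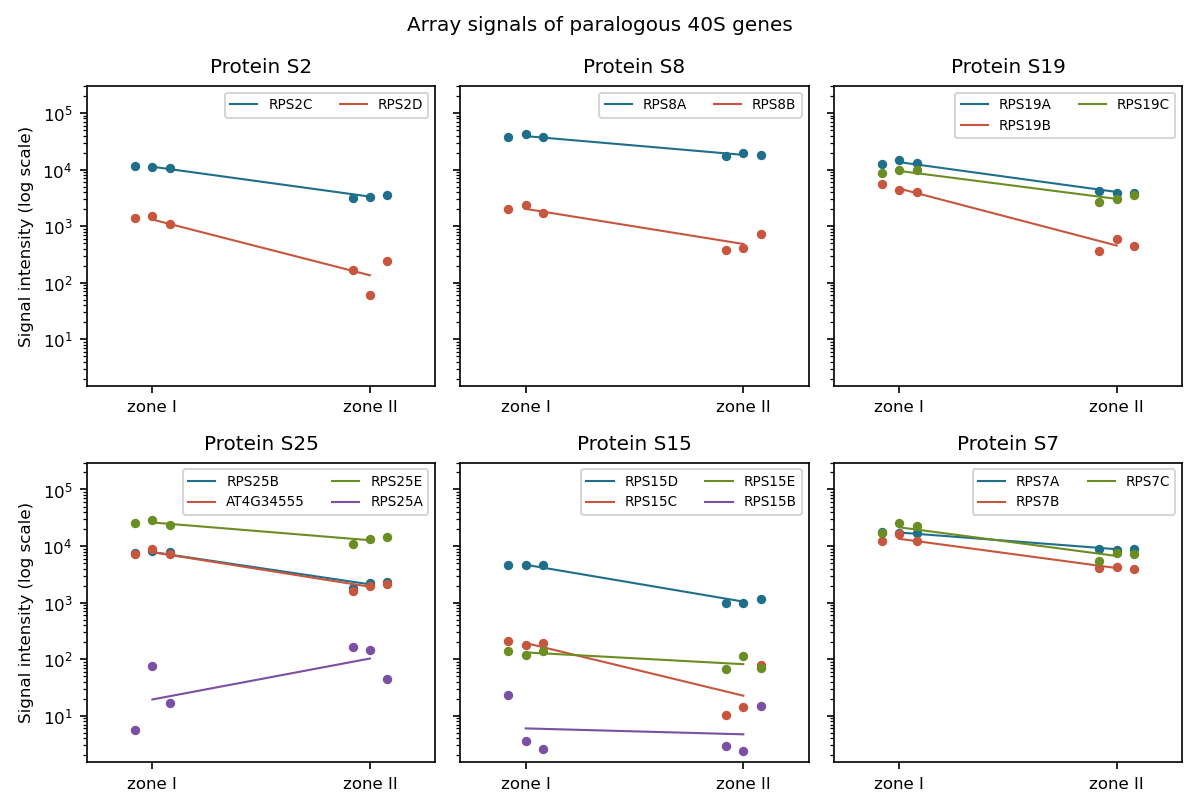
Signal intensity (log scale) on the 3 arrays of each zone for paralogues of 6 proteins. Points are arrays, lines join the geometric means of the zones. Heights of different genes are not comparable, only slopes are: RPS2D, RPS8B and RPS19B fall more steeply than their paralogues, RPS7A falls less steeply, and the RPS25A arrays of both zones overlap.

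Some other paralogues kept their ratio within narrow limits. In S14, for a platform protein, RPS14A and RPS14B changed by -1.92 and -1.91, and their ratio by -0.01 (95% interval -0.39 to 0.37). In S4, RPS4B and RPS4D changed by -1.92 and -1.94, with a ratio change of 0.02 (interval -0.39 to 0.42). In S24, the change of ratio between RPS24A and RPS24B was 0.02 (interval -0.40 to 0.44). Of the 18 uncalled pairs of bright genes, 11 had an interval that lay within a 1.5-fold change in either direction. The widest bounds were -0.95 and 0.71, so smaller unequal changes could not be seen.

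In 9 of the 11 called pairs of bright genes the probe set with the higher zone I signal had the smaller zone difference, as in 8 of the 18 uncalled pairs and in 57.9% of the 831 called bright pairs of the whole table. This describes probe set signals, which do not rank the transcripts. The part of signal level in these paralogue differences was not tested.

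**Figure D4:**
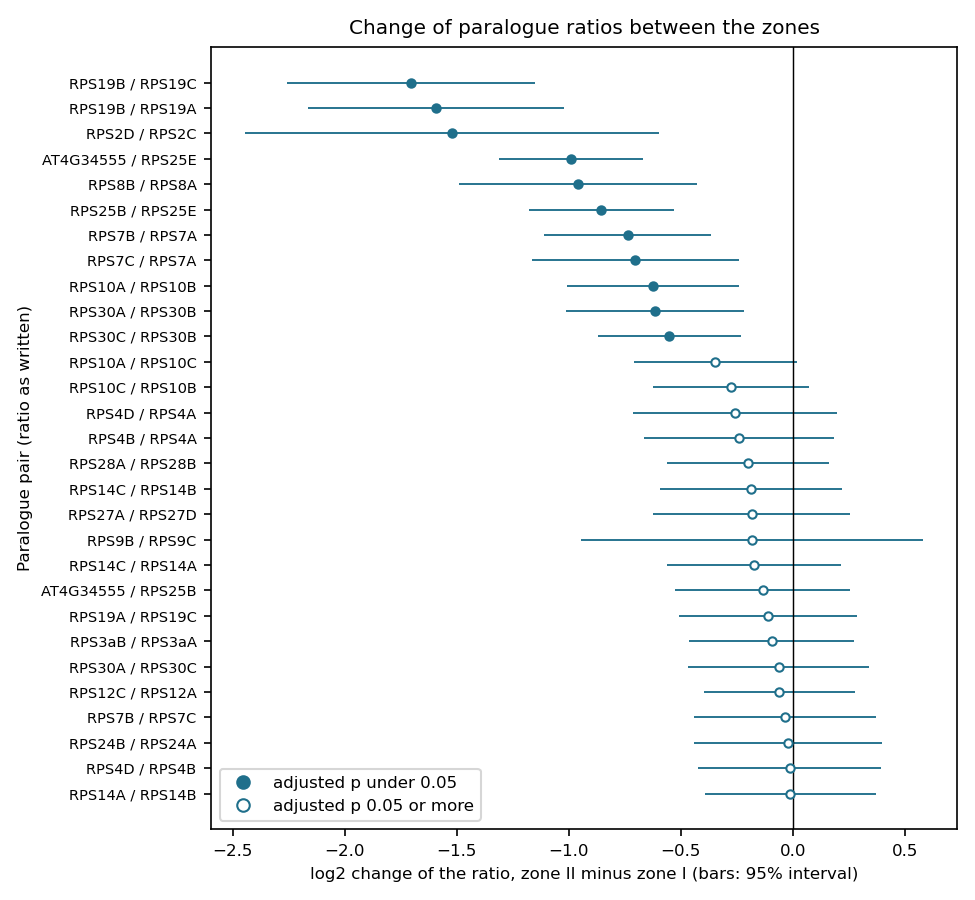
Change of the log2 ratio between zones (x axis, zone II minus zone I, with 95% intervals) for the 29 pairs of bright paralogues (y axis), each ratio written so that the change is negative. Filled points had an adjusted p under 0.05. The 11 called pairs start at -1.70 for RPS19B over RPS19C, and RPS30C over RPS30B is the called pair nearest to 0.

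A further 22 pairs joined these genes to paralogues that the annotation words differently. Of these 22 pairs 2 were called, a smaller share than the 26.6% of all pairs of same-named probe sets. The called pairs were RPS15aF against RPS15A at AT1G07770 (-0.91 ± 0.17, adjusted p = 0.00267) and RPS15D against RPS15 at AT1G04270 (-0.81 ± 0.20, adjusted p = 0.013). For S13 the files use the symbol RPS13A for AT3G60770, with a difference of -1.76 ± 0.23, and the TAIR10.1 annotation uses it for AT4G00100, with -2.17 ± 0.19. The ratio of these S13 genes changed by 0.41 (interval -0.09 to 0.90, not called). All of these pairs were chosen after the data were seen.

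Factors that build the 40S subunit had a lower median than its proteins. All 14 listed assembly genes were higher in zone I, against 19.8% of all probe sets. Their median was -2.48 (-2.10 with 64 added) and their range was -3.40 to -1.84. RRP5, which binds early pre-ribosomal RNA, gave 2472, 4006 and 3008 in zone I and 294, 317 and 270 in zone II (-3.40 ± 0.22, adjusted p = 3.18e-06). TOZ, a WD-repeat protein of the early small subunit particle, followed with -3.37 ± 0.33 (adjusted p = 2.04e-05), and the RNA helicase RH10 with -2.90 ± 0.47 (adjusted p = 0.000602). The difference between the assembly genes and the ribosomal proteins was not tested.

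The list of initiation factors and RACK1, which act on or sit on the 40S subunit, held 25 measured genes. Of these, 20 were called toward zone I, 1 toward zone II and 4 not at all, with a median of -1.31. Over all probe sets, 19.8% were called toward zone I and 18.1% toward zone II. RACK1 is a scaffold protein on the head of the subunit and has 3 genes. RACK1C gave 2463, 3576 and 3624 in zone I and 421, 256 and 616 in zone II (-2.97 ± 0.30, adjusted p = 2.64e-05). RACK1B had -2.37 ± 0.25 (adjusted p = 3.15e-05) and RACK1A had -1.31 ± 0.17 (adjusted p = 0.000148). Whether the RACK1 genes differed from each other was not tested.

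Among the initiation factors the largest difference was that of the eIF2 alpha gene AT5G05470 (-2.02 ± 0.36, adjusted p = 0.00109), whose product is part of the factor that brings the initiator transfer RNA. The gene that went the other way was AT1G54290, for eIF1, which helps select the start codon. Its signal was 32.1, 35.3 and 102 in zone I and 198, 228 and 105 in zone II (1.79 ± 0.62, adjusted p = 0.0409). All 6 values were low, the nearest arrays of the zones were almost equal, and 8 alternatives ended the call, with adjusted p-values up to 0.217. The brighter eIF1 genes AT4G27130 and AT5G54760 had -0.49 ± 0.16 (adjusted p = 0.0365) and -0.18 ± 0.15 (adjusted p = 0.421).

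Of the 4 measured genes of the TOR and S6 kinase list, which acts on S6, 0 were called toward zone I and 1 toward zone II, where 18.1% of all probe sets were called (limma, with 0 toward zone I also at an unadjusted p under 0.05). S6K2, an S6 kinase, gave 293, 108 and 225 in zone I and 2100, 3569 and 1673 in zone II, a 12.1-fold gap with no overlap (3.60 ± 0.38, adjusted p = 3.45e-05). Its paralogue S6K1 had a difference of -0.28 ± 0.28 (adjusted p = 0.503). TOR, the kinase that activates S6 kinases, had -0.03 ± 0.31 (adjusted p = 0.952), and its partner RAPTOR1 had 0.31 ± 0.30 (adjusted p = 0.463).

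**Figure D5:**
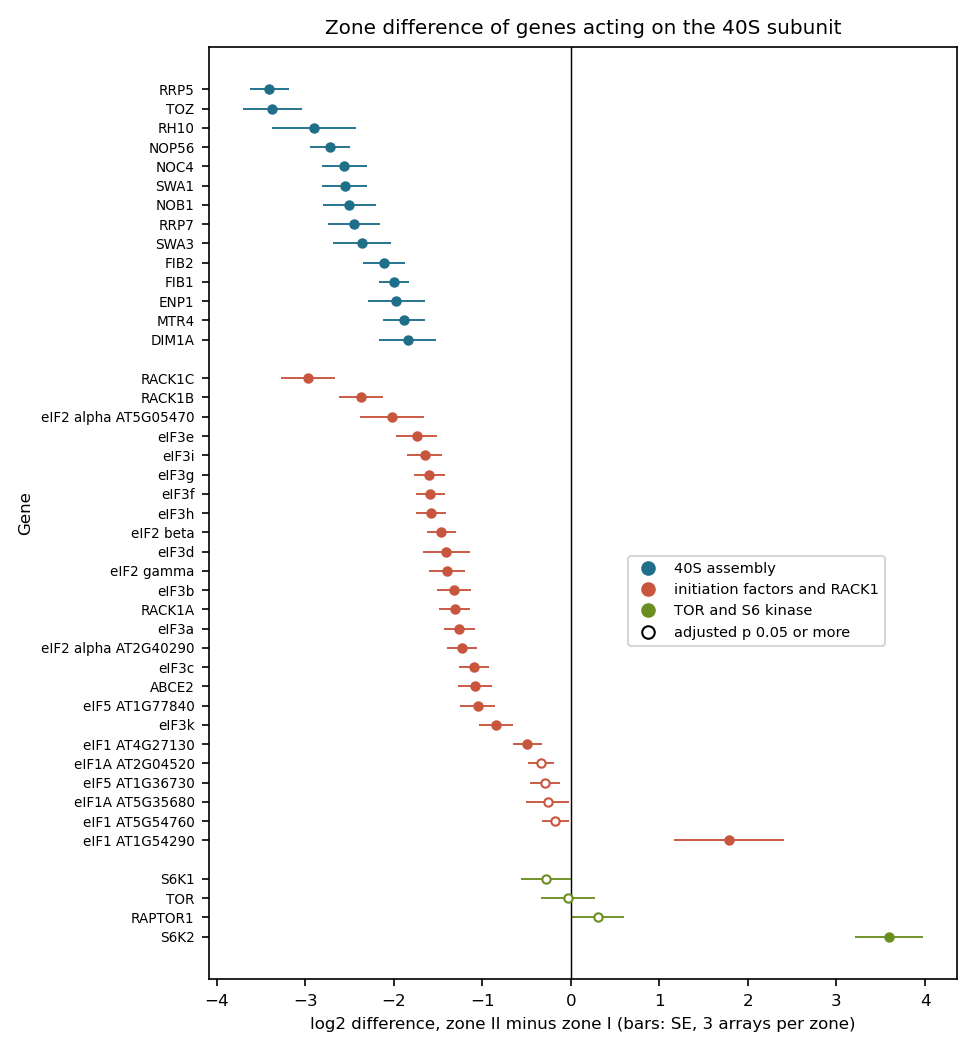
Log2 difference between zones (x axis, zone II minus zone I) for 14 assembly genes, 25 genes for initiation factors and RACK1, and 4 genes of the TOR and S6 kinase list (y axis). Bars are standard errors over 3 arrays per zone, and open points had an adjusted p of 0.05 or more. S6K2 at 3.60 and the dim eIF1 gene AT1G54290 at 1.79 are the filled points right of 0.

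The authors' deposited table of their own comparison gives 60 of the 69 genes a log2 fold change below 0 with an adjusted p under 0.05, against 25.6% of all probe sets in the authors' deposited table. It gives 0 genes above 0 at that threshold, and also 0 by its unadjusted p-values. The 59 genes called here were all among the 60. The median log2 fold change of the genes in the authors' deposited table was -1.46. Its direction is not given in the sources used here and was read as zone II over zone I, since it correlated with that difference at 0.87 over all probe sets.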

How the data were processed

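The authors deposited signal intensity values on a linear scale for 6 arrays, credited to MAS5 and Affymetrix Expression Console per the submitters' processing notes. The sources used here name no version, setting or array design. Trimmed means (2% off each end) were equal on all arrays, and no detection calls were used. A second table deposited by the authors holds their log2 fold changes with raw and adjusted p-values, from a test that is not stated.

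Control probe sets (64) were left out and log2 was taken without an offset. Zones were compared over 22746 probe sets in limma 3.58.1 (R 4.3.3; lmFit, eBayes with an intensity trend, two-sided, Benjamini-Hochberg, threshold 0.05). Paralogue ratios were fitted likewise over 6044 pairs from 1019 groups of 2 to 10 single-locus probe sets with the same protein name, with intervals at 95%. Both fits were tested on simulated data with independent noise for each probe set. Such data lack variation shared by arrays or paralogues, so they cannot show how reliable the pair calls are. The number of arrays, 3 per zone, limits the precision.

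Genes were named by the rule: the 5 largest called differences in each direction, any bright gene not called, the largest called pair of each protein, the 3 highest mean signals, and from each list the 3 largest and any called gene against the majority. Others were chosen after their values were seen. Genes and lists were chosen with earlier results of these data known. Symbols came from the deposited annotation, or TAIR10.1 for other genes. LST8-1, CDC20.1 and the eIF3b gene AT5G27640 were listed but not analysed here. RBCS3B was listed but not analysed separately, and the annotation of the probe set reported as RBCS1A names RBCS3B. The 16 alternatives are given in the closing section. Figures were drawn with matplotlib 3.10.9 in Python 3.11.15.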

Additional observations from a re-analysis of the deposited data

How the results depend on the processing

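Fits were repeated with quantile normalization, equal medians, 16 or 64 added, probe sets under the 40th percentile of signal removed, the replicate block, robust eBayes, array weights, no intensity trend, each array left out, and array 1 of both zones left out. The fit was also repeated without s_at and x_at probe sets, for counts only, and this refit is not among the 16 alternatives. Quantile normalization moved the median difference of all probe sets from -0.04 to -0.15. Of the 59 genes called higher in zone I, 56 kept the call under each of the 16 alternatives that tested them, and 0 changed sign. RPS9C, RPS15C and RPS16B lost it in some. Genes called higher in zone II numbered 0 to 1 with an array left out. Called 40S pairs numbered 18, but 32 with 64 added, 5 without the intensity trend, 11 without the first arrays and 11 to 21 with an array left out. Of the 18 pairs, 5 kept the call under every alternative that tested them. Among the called pairs of bright genes, only RPS19B with RPS19C did. The 1 initiation factor called higher in zone II fell to 0 with the replicate block, with quantile normalization, without the trend and without the first arrays, and to 0 to 1 with an array left out. In deviations from the zone mean, same-numbered arrays correlated at 0.004, 0.036 and 0.037, and other combinations at -0.0376 to 0.0026. Many probe sets are dim, so such small correlations cannot decide whether replicate numbers pair the arrays. With the replicate block, 59 genes and 19 pairs were called, and it ended no other call named above than that of the eIF1 gene. Among 43 named results, 638 of 681 values kept their direction and side of the threshold. Signals below about 64 carry large errors, which limits the dim genes.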
